A study of Homo sapiens with 2 samples.

Results

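The genes described are 10 members of the NF-kB system, namely its 5 subunits (NFKB1, NFKB2, REL, RELA and RELB), the inhibitors NFKBIA and NFKBIE, the feedback enzyme TNFAIP3, the ubiquitin ligase BIRC3 and the kinase IKBKE. They were chosen by name, matched on the symbol in the authors' deposited table and joined by Entrez number to the count files, where all 10 were found among 25702 genes. RNA was sequenced from K562, an established human erythroleukemia line that carries the BCR-ABL1 fusion, kept as an asynchronous culture in RPMI medium with serum. The cabozantinib culture received 1 µM cabozantinib (XL184), a drug that blocks several receptor tyrosine kinases including MET, AXL and the VEGF receptors, for 48 h, and the DMSO culture had the solvent for the same 48 h. The question was how the drug affects gene expression in these leukemic cells. There was 1 library for cabozantinib and 1 for DMSO, so differences could not be checked against replicates and are described by size and counting error.

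NF-kB is a family of transcription factors that bind DNA as pairs of subunits. In the canonical branch, pairs such as RelA with p50 are held in the cytoplasm by inhibitors of the IkB family until the IKK kinase complex marks the inhibitor for destruction. In the alternative branch, the kinase NIK leads to processing of the NFKB2 product p100 into p52, which pairs with RelB. Several genes of the system are themselves NF-kB targets, BIRC3 (c-IAP2) among them. The pathway is known for negative feedback through IkB alpha (NFKBIA) and A20 (TNFAIP3).

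The promoters of the members are shown first, because binding sites for NF-kB in them are the known route of this feedback. RefSeq sequences on GRCh38.p14, from 250 bases before to 50 bases after each annotated start, were searched on both strands for the kB consensus. Matches that overlapped at different positions were each counted. The table held 12 starts of 8 members (not RELB and NFKBIE), and 7 of these starts, in 6 genes, had a match, against 5.91% of all 35116 promoters of the table. Counted by gene, a match was found for 8.55% of measured genes with a promoter there. The members were chosen by name from a system known for this feedback, so a high share was likely beforehand. It was not tested. The matches lay in TNFAIP3, NFKB2, BIRC3, NFKBIA, NFKB1 and REL, and none was found in these windows of RELA and IKBKE. A match describes letters only and does not show that a factor binds there. The 4 sequences below are the 250 bases before the start, 5′ to 3′ on the strand of the gene, with the kB matches in capitals. They are the genes with the lowest ratios (TNFAIP3, chr6:137867009-137867258, plus strand; NFKB2, its most downstream start, chr10:102395455-102395704, plus strand; BIRC3, chr11:102317234-102317483, plus strand) and, for contrast, the inhibitor NFKBIA (chr14:35404750-35404999, minus strand).
TNFAIP3: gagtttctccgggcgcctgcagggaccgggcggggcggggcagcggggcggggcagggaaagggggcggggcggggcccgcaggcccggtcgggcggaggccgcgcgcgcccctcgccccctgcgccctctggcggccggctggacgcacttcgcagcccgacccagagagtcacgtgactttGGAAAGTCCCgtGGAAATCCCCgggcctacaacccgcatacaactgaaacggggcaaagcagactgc
NFKB2: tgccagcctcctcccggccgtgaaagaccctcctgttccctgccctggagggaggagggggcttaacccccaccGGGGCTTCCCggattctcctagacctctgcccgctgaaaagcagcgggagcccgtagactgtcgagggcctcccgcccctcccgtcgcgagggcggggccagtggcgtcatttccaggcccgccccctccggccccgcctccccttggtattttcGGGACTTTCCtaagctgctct
BIRC3: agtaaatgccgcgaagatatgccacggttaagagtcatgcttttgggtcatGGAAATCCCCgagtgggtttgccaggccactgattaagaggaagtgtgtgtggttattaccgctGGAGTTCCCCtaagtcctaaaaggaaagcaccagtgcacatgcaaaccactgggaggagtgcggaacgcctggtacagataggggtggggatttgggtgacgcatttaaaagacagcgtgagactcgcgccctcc
NFKBIA: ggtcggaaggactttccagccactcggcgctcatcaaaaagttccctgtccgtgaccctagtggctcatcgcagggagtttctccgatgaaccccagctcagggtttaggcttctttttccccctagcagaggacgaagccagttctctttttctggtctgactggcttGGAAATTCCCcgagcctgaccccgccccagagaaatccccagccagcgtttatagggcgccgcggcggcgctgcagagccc

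Shorter windows show the matches of NFKB1 and REL, 2 subunit genes whose RNA was not lower, and of an upstream NFKB2 start, again with the match in capitals. The NFKB1 match began 49 bases before the start (chr4:102501302-102501327) and the first REL match 47 bases before it (chr2:60881519-60881544). The NFKB2 start at base 102394578 had 3 matches, of which an overlapping pair began 107 and 106 bases before it and the one shown 78 bases before it (chr10:102394492-102394517), all on the plus strand of GRCh38.p14.
NFKB1 window: acgtcagtGGGAATTTCCagccagga
REL window: tcagccgcGGGAAATTCCcctcccgc
NFKB2 upstream window: gccgagaaGGGGCTTTCCcggccctg
Members with and without a lower RNA level therefore both carried matches.

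The cabozantinib library held 25505289 counts over 16243 genes and the DMSO library 25025243 counts over 16631 genes. Levels are given in CPM, counts for each 1e6 counts after TMM scaling, and genes that reached 1 CPM in either library were taken as measured, 12536 in all. The markers of erythroid cells were measured in 9 of 9 cases, with a summed level of 37495 CPM with cabozantinib and 13471 CPM in DMSO, and the lowest of them was KLF1. Of 5 monocyte and macrophage markers 1 was measured (LYZ), 2 were at 0 in both libraries, and the sum was 9.04 CPM with cabozantinib and 16.9 CPM in DMSO. Of 5 lymphocyte markers 2 were measured, CD3D among them, with MS4A1 at 0 in both libraries and a sum of 3.07 CPM with cabozantinib and 11.1 CPM in DMSO. Of 4 fibroblast markers 2 were measured, with sums of 3.35 and 6.33 CPM in cabozantinib and DMSO cells. Among 3 epithelial markers CDH1 had 1 count in each library, while EPCAM and KRT19 brought the sum to 174 CPM with cabozantinib and 134 CPM in DMSO. The part of these shifts in the results below was not tested, and in bulk RNA fewer cells of a type and less RNA per cell cannot be told apart.

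After cabozantinib, TNFAIP3 and NFKB2 were lower by 6.41-fold and 2.82-fold, while the main subunit RelA, the subunits NFKB1 and REL and the IkB inhibitors stayed within 1.5-fold of DMSO. A gene was called at a ratio of 1.5-fold or more, a log2 size of 0.58, with an exact 95% interval of the ratio of its 2 counts that excluded no change. By this rule 3 of the 8 measured members (37.5%) were lower and 0 were higher, and all 8 reached 1 CPM in both libraries. Of all measured genes 12.3% were lower and 8.15% higher, or 1543 and 1022 genes. Scaled by total counts, 1824 genes were lower and 757 higher, and the members' counts were again 3 and 0. The median log2 ratio of the measured members was 0.02, beside 0.01 for all measured genes, and it was -0.06 with scaling by total counts. So the members split into a few genes far below their DMSO level and a majority near it, which the plot of all measured genes shows.

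**Figure D1:**
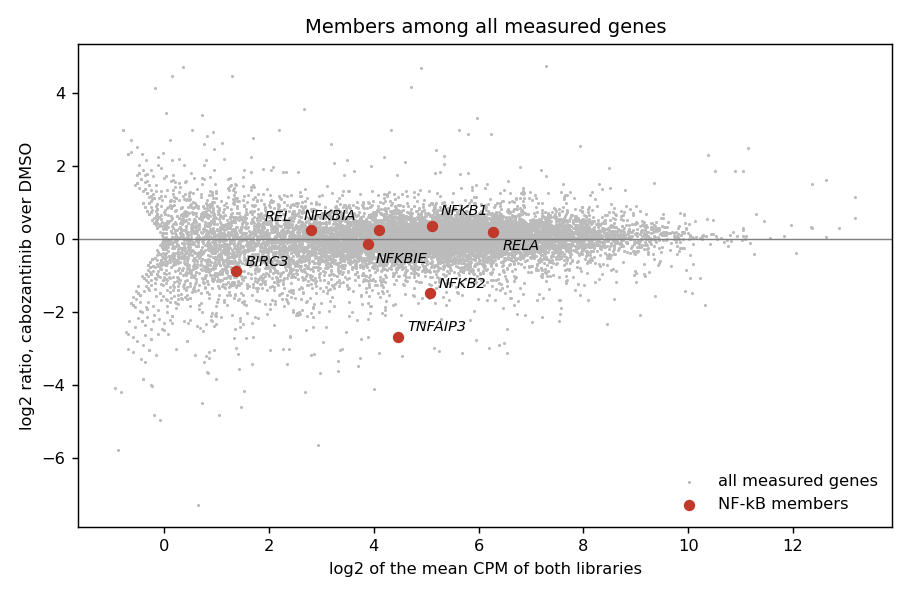
Log2 ratio of cabozantinib over DMSO against the log2 of the mean CPM of both libraries for 12536 measured genes (grey), with the 8 measured members in red. TNFAIP3 and NFKB2 lie in the lower part of the cloud, at log2 ratios of -2.68 and -1.50, and RELA, NFKB1, REL, NFKBIA and NFKBIE lie between -0.13 and 0.35.

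TNFAIP3 (Entrez 7128, hg19 chromosome 6, 138188581 to 138204449, plus strand, 9 exons) encodes A20, a ubiquitin-editing enzyme that shuts down NF-kB signalling. It had 148 counts with cabozantinib and 989 counts in DMSO, or 5.97 and 38.4 CPM. Its level in the cabozantinib library was the lower by 6.41-fold (95% counting interval 5.40 to 7.69), and only 0.590% of measured genes had a lower log2 ratio. In the authors' deposited table the shrunken fold for TNFAIP3 was 6.44-fold lower, with a posterior probability of differential expression of 1. At least 0.95 was reached by 4.66% of the genes in the authors' deposited table, and among the members by NFKB2 and TNFAIP3.

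NFKB2 (Entrez 4791, hg19 chromosome 10, 104154229 to 104162281, plus strand, 24 exons) encodes p100, the precursor of p52 and itself an IkB-like inhibitor. It had 436 counts with cabozantinib and 1281 counts in DMSO, or 17.6 and 49.7 CPM, and was 2.82-fold lower (2.53 to 3.16). Its log2 ratio was below that of all but 2.54% of measured genes. The authors' deposited table gave a shrunken fold of 2.84-fold lower for NFKB2. The counts are per gene, so the 3 RefSeq starts of NFKB2 cannot be told apart.

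NFKB1 (Entrez 4790, chromosome 4, 103422486 to 103538459, 24 exons), which encodes p105 and its product p50, is the paralog of NFKB2. It had 959 counts with cabozantinib and 784 counts in DMSO, or 38.7 and 30.4 CPM. Its log2 ratio of 0.35 (0.21 to 0.49) lay above 0 by counting error and under the 1.5-fold size. The 2 paralogs thus stood apart: within a library NFKB2 had 0.455 counts for each NFKB1 count with cabozantinib and 1.63 in DMSO. On the log2 scale this ratio differed by -1.85 (-2.05 to -1.64, counting error only), a quantity that does not depend on the scaling.

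RELA (Entrez 5970, chromosome 11, 65421067 to 65430443, minus strand, 11 exons), the activating subunit p65 of the canonical branch, had 2043 counts with cabozantinib and 1881 counts in DMSO. At 82.5 and 73.0 CPM its log2 ratio was 0.18 (0.09 to 0.27). REL (Entrez 5966, chromosome 2, 61108752 to 61150178, 11 exons), the subunit c-Rel best known from lymphocytes, had 188 counts with cabozantinib and 166 in DMSO, a log2 ratio of 0.24 whose interval included 0 (-0.07 to 0.55). RELB (Entrez 5971, chromosome 19, 45504712 to 45541452, 12 exons), the partner of p52, was under 1 CPM in both libraries, with 9 counts and 16 counts in cabozantinib and DMSO cells. Its interval ran from a log2 ratio of -2.13 to 0.49, so a difference in RELB was not detectable at this depth.

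**Figure D2:**
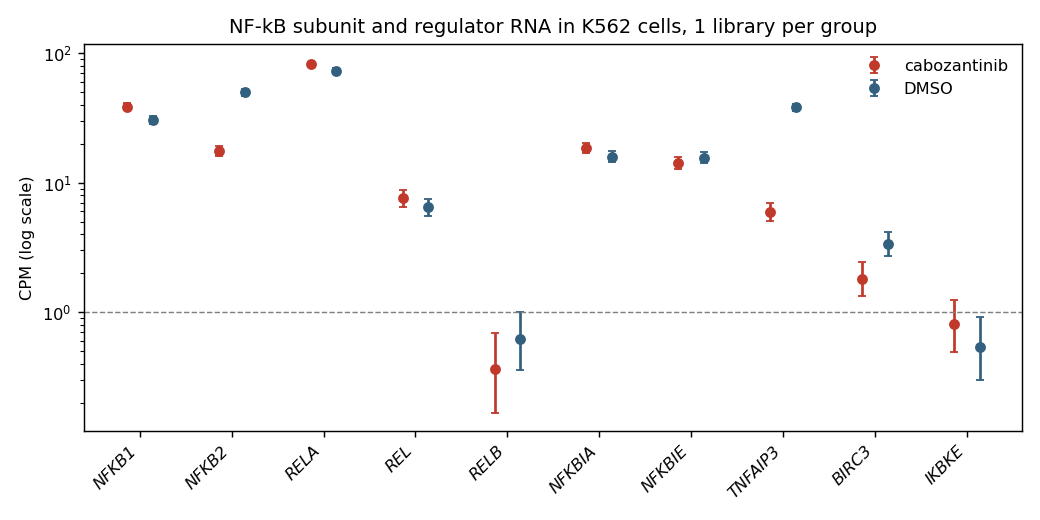
CPM of the 10 members on a log scale in the cabozantinib library (red, left point of each pair) and the DMSO library (blue), with exact 95% Poisson intervals of the counts. The dashed line is the limit of 1 CPM, which RELB and IKBKE did not reach, and between the libraries the intervals of TNFAIP3, NFKB2 and BIRC3 (lower with cabozantinib) and of NFKB1 and RELA (higher, by less than 1.5-fold) do not overlap.

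Levels of different genes were compared per kilobase of exon, using the deposited exon lengths. On this scale RELA had the highest level of the 5 subunits in both libraries, at 32.0 CPM per kilobase with cabozantinib and 28.3 in DMSO. NFKB1 came second with cabozantinib at 9.48 CPM per kilobase, ahead of NFKB2 at 5.26, whereas in DMSO NFKB2 came second at 14.8, ahead of NFKB1 at 7.45. REL followed at 2.93 and 2.49 CPM per kilobase in cabozantinib and DMSO cells, and RELB was lowest at 0.160 and 0.274. The order of NFKB1 and NFKB2 was thus exchanged between the libraries.

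The summed level of the 5 subunits was 49.8 CPM per kilobase with cabozantinib and 53.4 in DMSO. NFKB2 and RELB, the genes of the alternative branch, together made up 10.9% of it with cabozantinib and 28.3% in DMSO. Nearly all of that was NFKB2, at 10.6% and 27.8% of the sum in cabozantinib and DMSO cells. RELA made up 64.2% with cabozantinib and 53.1% in DMSO, and NFKB1 19.0% and 14% in the same libraries. As a share of the raw counts of the 5 genes, NFKB2 and RELB had 12.2% with cabozantinib (exact 95% binomial interval 11.2% to 13.4%) and 31.4% in DMSO (30.0% to 32.9%).

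**Figure D3:**
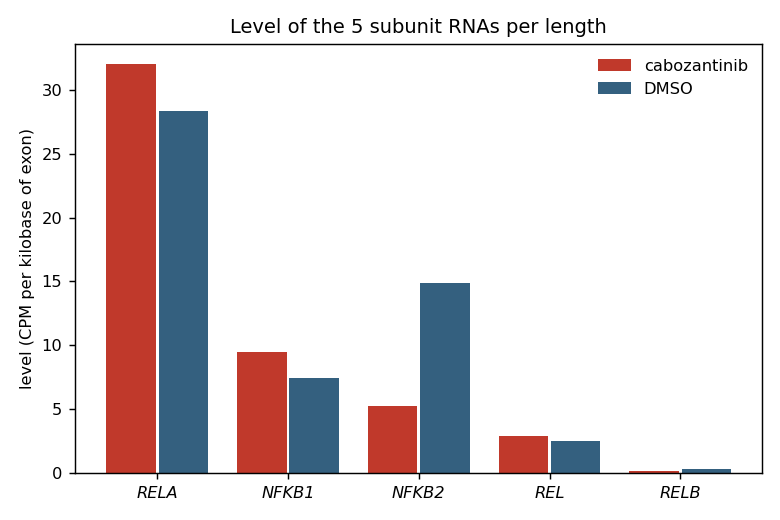
Level of the 5 subunit RNAs in CPM per kilobase of exon, cabozantinib (red) left of DMSO (blue), 1 library each. NFKB2 is at 5.26 with cabozantinib and 14.8 in DMSO, and the other subunits differ by less than 1.5-fold or, for RELB, on fewer than 20 counts per library.

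Neither IkB inhibitor was called. NFKBIA (Entrez 4792, chromosome 14, 35870716 to 35873960, minus strand, 6 exons) encodes IkB alpha, the fast feedback inhibitor of the canonical branch. It had 460 counts with cabozantinib and 408 counts in DMSO, or 18.6 and 15.8 CPM, a log2 ratio of 0.23 (0.03 to 0.43). NFKBIE (Entrez 4794, chromosome 6, 44225903 to 44233525, minus strand, 6 exons), which encodes IkB epsilon, had 352 counts with cabozantinib and 401 in DMSO. Its log2 ratio was -0.13, with an interval that included 0 (-0.34 to 0.08). Of the members' exons, 309 bases of NFKBIA and 156 bases of IKBKE are shared in the deposited annotation with a gene on the opposite strand that had 0 counts in both libraries (IKBKE-AS1 in the case of IKBKE). The rule by which such reads were assigned is not stated by the labels or headers.

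Counts of NFKBIA for each count of RELA, the subunit it holds back, were 0.225 with cabozantinib and 0.217 in DMSO. The log2 difference was 0.05 (-0.16 to 0.27), so a difference in this ratio was not detectable at this depth. TNFAIP3 had 0.322 counts for each NFKBIA count with cabozantinib and 2.42 in DMSO, a log2 difference of -2.91 (-3.23 to -2.60). Both genes are known NF-kB feedback targets, and in these libraries their levels moved apart.

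BIRC3 (Entrez 330, chromosome 11, 102188194 to 102208465, plus strand, 9 exons) encodes c-IAP2, a ubiquitin ligase of the TNF receptor complex and an NF-kB target. It had 45 counts with cabozantinib and 87 counts in DMSO, or 1.82 and 3.38 CPM, and was 1.85-fold lower (1.28 to 2.73). It passed the 1.5-fold rule on few counts, and the authors' deposited table gave BIRC3 a posterior probability of 0.282. Its neighbour and paralog BIRC2, which encodes c-IAP1 and begins 9.50 kb downstream, had 72.7 CPM with cabozantinib and 66.1 CPM in DMSO, a log2 ratio of 0.14. BIRC3 had 0.0250 counts for each BIRC2 count with cabozantinib and 0.0511 in DMSO, a log2 difference of -1.03 (-1.56 to -0.50). Reads shared by the 2 similar genes are uncertain.

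IKBKE (Entrez 9641, chromosome 1, 206643586 to 206670223, plus strand, 22 exons) encodes IKK epsilon, a kinase related to the IKK complex that also serves interferon induction. It was under 1 CPM, with 20 counts with cabozantinib and 14 in DMSO, and its log2 ratio of 0.56 had an interval of -0.49 to 1.67. Its paralog TBK1 was measured at 60.4 CPM with cabozantinib and 56.7 CPM in DMSO. IKBKE had 0.0134 counts for each TBK1 count with cabozantinib and 0.00958 in DMSO, and the log2 difference of 0.48 had an interval of -0.51 to 1.47.

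**Figure D4:**
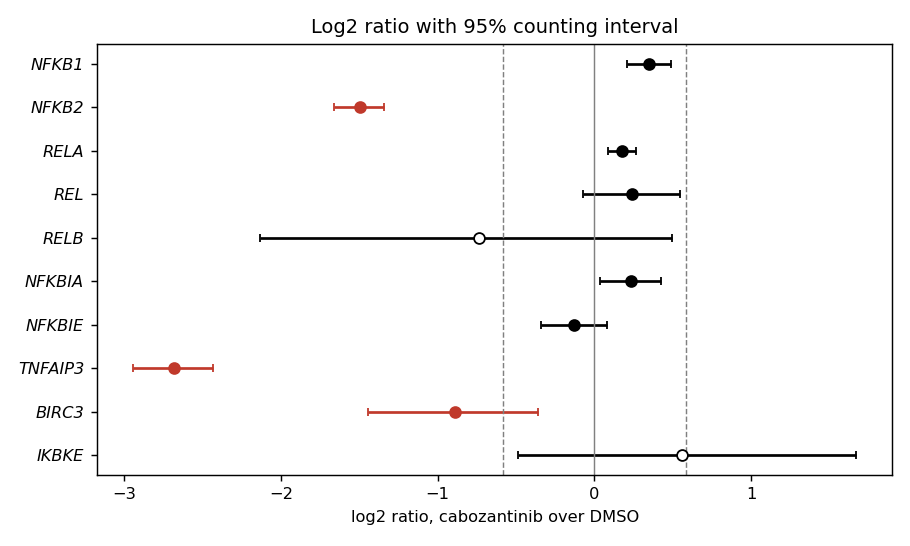
Log2 ratio of cabozantinib over DMSO for the 10 members with exact 95% counting intervals, red where lower by the 1.5-fold rule and open where under 1 CPM in both libraries. The dashed lines mark 1.5-fold, and the intervals of RELB and IKBKE are the widest and include 0.

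The rest of the pathway was read from 9 lists with 117 genes. Each list count below is to be set beside the shares of all measured genes, 12.3% lower and 8.15% higher. Among the 11921 genes that reached 1 CPM in both libraries, 1282 were lower and 881 higher. None of 11 genes of the IKK complex, its upstream kinases and their TAB adaptors passed the rule, with a median log2 ratio of -0.06. The 7 kinases among them lay between -0.21 and 0.18, and the regulatory subunit and the TAB adaptors between -0.42 and 0.46. The catalytic subunits of the IKK complex, CHUK and IKBKB, had log2 ratios of 0.03 and -0.15. Its regulatory subunit IKBKG (NEMO) had 21.3 CPM with cabozantinib and 27.7 CPM in DMSO, a log2 ratio of -0.38 (-0.55 to -0.22). MAP3K14, which encodes NIK, the kinase of the alternative branch, had 209 counts with cabozantinib and 192 in DMSO, a log2 ratio of 0.18 with an interval of -0.11 to 0.47. Of 15 measured adaptors and TRAF ligases 1 was lower and 0 were higher, with a median of 0.05 that was -0.04 under scaling by total counts. The lower one was RIPK2, the adaptor kinase of the NOD receptors, at 24.6 CPM with cabozantinib and 51.4 CPM in DMSO, 2.09-fold lower (1.89 to 2.30).

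In the list of the linear ubiquitin and CARD-BCL10-MALT1 complexes, 4 of 9 measured genes were lower and 0 were higher. The median there was 0.01 and turned to -0.08 under scaling by total counts. CARD9, an adaptor of myeloid cells, had 31.2 CPM with cabozantinib and 56.6 CPM in DMSO, 1.82-fold lower. RBCK1, which encodes the HOIL-1 subunit of the linear ubiquitin ligase, had 34.1 CPM with cabozantinib and 73.1 CPM in DMSO, 2.14-fold lower (1.98 to 2.33). The protease MALT1 was 1.63-fold lower (1.07 to 2.53) on 37 counts with cabozantinib and 63 in DMSO. Posterior probabilities in the authors' deposited table were 0.075 for MALT1, 0.876 for CARD9 and 0.998 for RBCK1.

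Of 5 other genes of the IkB family 1 was lower and 0 were higher, with a median log2 ratio of -0.02. That gene was BCL3, a nuclear IkB protein that partners p50 and p52, with 33 counts with cabozantinib and 87 in DMSO, 2.51-fold lower (1.68 to 3.91). NFKBIB, which encodes IkB beta, had a log2 ratio of -0.23 (-0.39 to -0.08). Among 10 measured deubiquitinases and other brakes 1 was lower and 0 were higher, with a median of -0.14. CYLD, a deubiquitinase that limits NF-kB, had 227 counts with cabozantinib and 472 in DMSO and was 1.997-fold lower (1.70 to 2.35). In that list a second gene passed the rule under scaling by total counts and by totals without globin and mitochondrial genes.

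Among receptors upstream of the pathway, of 10 measured genes 6 were lower and 1 was higher, with a median log2 ratio of -0.86. One of the lower genes, IL1RAP, reached 1 CPM only in DMSO, so the filter favoured its direction, and without it 5 of 9 were lower with the same rounded median. The TNF receptors went opposite ways. TNFRSF1A had 26.4 CPM with cabozantinib and 48.1 CPM in DMSO, 1.82-fold lower (1.66 to 2.01), and TNFRSF1B had 152 CPM with cabozantinib and 79.1 CPM in DMSO, 1.92-fold higher (1.82 to 2.03). IL1R1 and TLR6 were 2.16-fold and 2.26-fold lower on 54 and 52 counts with cabozantinib and 122 and 123 in DMSO. CD40, TLR5 and IL1RAP were lower by 1.87-fold, 1.82-fold and 2.88-fold on fewer than 100 counts in each library. The authors' posterior probabilities were 0.924 for TLR6, 0.881 for TNFRSF1A and 0.859 for IL1R1. For IL1RAP, CD40 and TLR5 they were 0.417, 0.322 and 0.155. Among these called receptors only the higher gene, TNFRSF1B, reached 0.95, with a posterior probability of 0.957.

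Of 11 ligand genes 1 was measured, IL18, which had 122 counts with cabozantinib and 226 in DMSO and was 1.78-fold lower (1.42 to 2.24). The authors' deposited table gave IL18 a posterior probability of 0.536. TNF had a count of 0 in each library, and such a count allows up to 3 counts, or 0.121 CPM with cabozantinib and 0.116 CPM in DMSO. Another 5 ligand genes of the list were also at 0 in both libraries.

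Among NF-kB target chemokines, cytokines and adhesion genes 5 of 6 measured were lower and 1 was higher, with a median log2 ratio of -1.18. IL6 and CXCL8 reached 1 CPM only in DMSO, so the filter favoured their direction. Of the 4 genes that reached it in both libraries 3 were lower and 1 was higher (median -0.80). Over all genes the same filter left 11921, with 1282 lower and 881 higher. CXCL8, the neutrophil chemokine interleukin-8, had 17 counts with cabozantinib and 55 in DMSO, 3.05-fold lower (1.78 to 5.72). CXCL3 had 72 counts with cabozantinib and 209 in DMSO, 2.78-fold lower (2.13 to 3.70). The adhesion molecule ICAM1 had 22.9 CPM with cabozantinib and 42.5 CPM in DMSO, 1.86-fold lower (1.68 to 2.06). CXCL2 was 1.64-fold lower (1.10 to 2.52) on 39 counts with cabozantinib and 67 in DMSO. IL6 had 3 counts with cabozantinib and 82 in DMSO, a ratio of 22.7-fold with a wide interval of 8.68 to 130. The higher one was CSF1, a macrophage growth factor, with 146 counts with cabozantinib and 81 in DMSO, 1.87-fold higher (1.42 to 2.49). The authors' posterior probabilities were 1 for IL6, 0.9998 for CXCL3, 0.943 for CXCL8, 0.916 for ICAM1, 0.525 for CSF1 and 0.085 for CXCL2. These genes were mostly low, and 5 of the 17 on the list were at 0 in both libraries.

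Of 10 measured target genes of survival and response 2 were lower and 1 was higher, with a median log2 ratio of -0.16. PLAU, IER3 and GADD45B reached 1 CPM only in DMSO, and of the 7 genes that reached it in both libraries 1 was lower and 1 higher, with a median of 0.31, so the median changed sign. PLAU, the urokinase protease, had 21 counts with cabozantinib and 186 in DMSO, 8.34-fold lower (5.41 to 14.1). CFLAR, an inhibitor of caspase-8 activation, had 30.8 CPM with cabozantinib and 64.3 CPM in DMSO, 2.09-fold lower (1.92 to 2.28). CD83 had 200 counts with cabozantinib and 113 in DMSO, 1.84-fold higher (1.45 to 2.34). The authors' posterior probabilities were 1 for PLAU, 0.997 for CFLAR and 0.592 for CD83. Scaled by total counts, by upper quartile, by DESeq2 size factors or by totals without globin and mitochondrial genes, 3 genes of that list were lower.

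**Figure D5:**
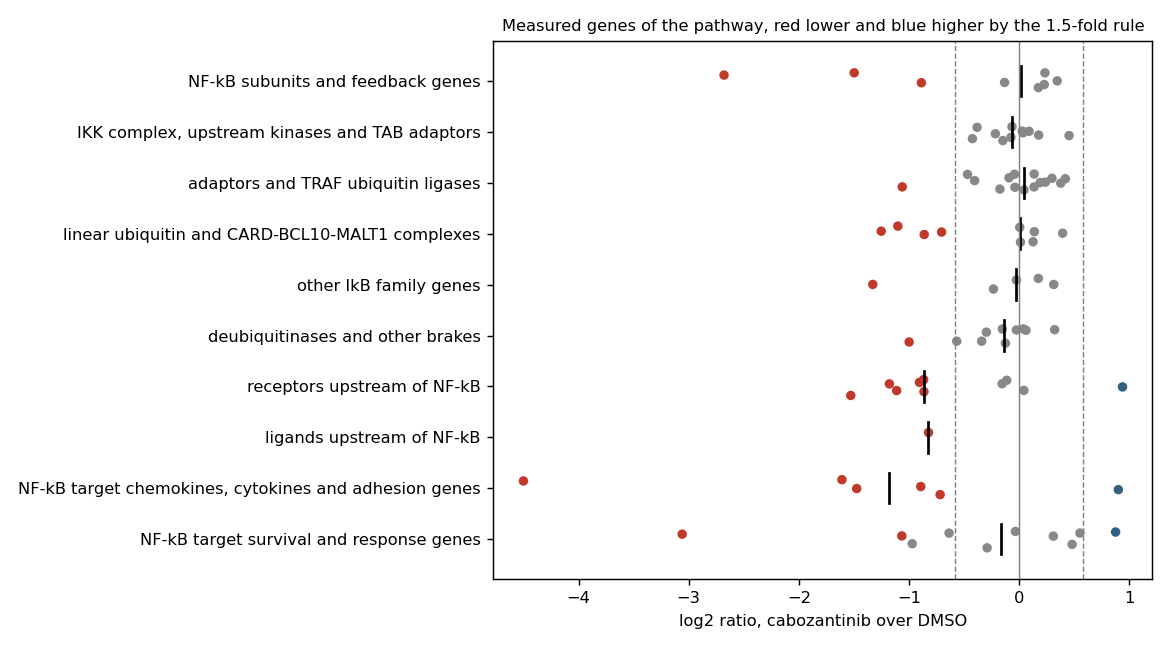
Log2 ratio of cabozantinib over DMSO for the measured genes of the 10 groups, with points red where lower and blue where higher by the 1.5-fold rule and the black bar at the median. The genes of the IKK complex and its upstream kinases and adaptors lie between -0.42 and 0.46, and the receptors have a median of -0.86. The target cytokines have one of -1.18, or -0.80 without IL6 and CXCL8, which reached 1 CPM only in DMSO.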

How the data were processed

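Both files of deposited counts hold whole-number counts per Entrez gene, aligned by the authors with Rsubread to hg19, per the file headers; GRCh37 is named beside hg19 per the submitters' processing notes. Libraries were strand-specific TruSeq, per the labels' protocols. Tool versions, the counting's strand setting and its handling of multi-mapped reads were not stated in the labels or headers. The authors' deposited table holds a posterior probability (a score between 0 and 1) and a fold ratio; the tool behind it was not stated, and 4 further columns, which name no sample, were left out. The deposited fold runs as cabozantinib over DMSO, since the log2 ratio of raw counts differed from it by -0.05 to -0.04 in 10269 genes of 100 counts or more in both libraries.

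Counts were scaled with TMM (edgeR 4.0.16, R 4.3.3; factors 0.971 for cabozantinib and 1.03 for DMSO), and 0.5 was added for log2 ratios. Ratio intervals are exact Clopper-Pearson 95% intervals and cover counting error only, as do those of the within-library ratios (normal approximation). With 1 library per group no p-value was computed. Values were computed with Python 3.11.15, numpy 2.4.6, scipy 1.17.1 and pandas 2.3.3, and the scripts were tested on simulated data.

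The members and lists were chosen with earlier results of these data known. All members were named, and of each list the genes called (up to 6 in each direction, some of which are not reported here) plus CHUK, IKBKB, IKBKG, TBK1, MAP3K14, BIRC2, NFKBIB, BCL3, CYLD, TNF, CXCL8 and IL6. All 117 list genes were found by symbol, older symbols not being needed. Alternatives covered scaling (DESeq2 1.42.0 size factors, upper quartile, total counts), filter, pseudocount, size, interval level and the deposited fold, with scaling over protein-coding genes and over totals without globin and mitochondrial genes added after seeing the data, as were the counts over list genes at 1 CPM in both libraries, which leave out genes that were low in 1 of them.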

Additional observations from a re-analysis of the deposited data

How the results depend on the processing

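The members' counts of 3 lower and 0 higher were found again under each scaling tried, without a filter, with pseudocounts of 1 and 5, with exact 99% intervals and with the fold of the authors' deposited table. A filter of 5 CPM left BIRC3 out, with 2 members lower, a median of 0.18 and 1022 measured genes lower. At a size of 2-fold BIRC3 was not called, leaving 2 members, beside 722 genes lower and 340 higher. At a log2 size of 0.32 NFKB1 was called, so 1 member was higher, beside 2566 genes lower and 2404 higher. TNFAIP3 ranged from -2.76 to -2.64 and NFKB2 from -1.58 to -1.49 on the log2 scale over the alternatives. The members' median lay near 0 and was negative with scaling by total counts (-0.06) and by totals without globin and mitochondrial genes (-0.01). No paired analysis was possible because each group has 1 library. Depth limits RELB and IKBKE, which had at most 20 counts, and culture-to-culture differences cannot be told apart from the treatment.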

Other observations

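A gene on the minus strand at the start of TNFAIP3, LOC100130476 (hg19 chromosome 6, 138187871 to 138189370), was looked at after its values were seen. It had 4 counts with cabozantinib and 42 in DMSO, 9.08-fold lower (95% counting interval 3.66 to 38.8). Its span overlaps 790 bases of TNFAIP3 but no exon of it in the deposited annotation, and without a stated strand setting reads of the 2 genes there cannot be told apart.

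The nearest measured gene on either side of each member, leaving out genes whose span overlaps the member (LOC100130476 at TNFAIP3), gave 20 neighbours. By the 1.5-fold rule 1 of them was lower and 2 were higher, beside 12.3% lower and 8.15% higher among all measured genes. IFNGR1 and HEBP2, on either side of TNFAIP3, had log2 ratios of -0.30 and -0.06. GBF1, before NFKB2, had one of 0.07, and PSD, the lower neighbour, whose annotated span begins 0.095 kb after NFKB2 on the opposite strand, had 30 counts with cabozantinib and 66 in DMSO. The higher neighbours were SLC39A8 beside NFKB1 and CLPTM1 beside RELB.

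A kB match in a RefSeq promoter window was found for 107 of 1136 genes lower by the rule (9.42%), for 59 of 694 higher (8.5%) and for 830 of 9706 measured genes with a promoter in the table (8.55%). These shares are descriptions and were not tested.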
